A study of Mus musculus with 2 samples.

Results

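The cells described here are Ly6d-positive lymphoid progenitors of mouse bone marrow: single cells that carried transcripts of Flt3 and Dntt together with Ly6d, and few or none of Siglech and Cd79a. They were chosen by their raw counts of unique molecular identifiers (UMIs, 1 per captured transcript). Only barcodes with 1000 or more detected genes were used, and a mitochondrial share of their UMIs of 10% or less. A member had at least 1 UMI of Flt3, at least 3 of Dntt, at least 2 of Ly6d, at most 1 of Siglech and at most 1 of Cd79a. This gave 531 cells, 185 of 3290 in the wild-type (WT) library and 346 of 4343 in the LCR1 knock-out (KO) library, so 531 of the 7633 barcodes within the gene and mitochondrial limits. They were set beside the 250 WT and 423 KO cells that met the same limits but had no Ly6d UMI.

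Lymphoid progenitors of the marrow express the cytokine receptor Flt3 and the terminal transferase Dntt, which adds untemplated bases at the joins of antigen receptor genes. Within that compartment the surface protein Ly6d marks cells biased to the B lineage, whereas cells without it keep T, innate lymphoid and dendritic options. The transcription factor Ebf1 is needed for entry into the B lineage and works together with E2A (encoded by Tcf3) and Foxo1, after which Pax5 and the surrogate light chain and signalling genes of the pre-B cell receptor follow. Siglech marks plasmacytoid dendritic cells and Cd79a the signalling chain of the B cell receptor, so both limits keep out cells that have gone further on either path.

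The study's question was about LCR1 and how group 2 innate lymphoid cells develop when it is deleted. Each group was 1 library of marrow cells from C57BL/6J mice aged 8 to 12 weeks, with WT animals in one and LCR1-/- animals in the other, and each library was a pool of animals with equal numbers of both sexes. Viable CD45-positive, lineage-negative, CD127-positive cells had been sorted from crushed bones after red cell lysis, so every cell compared here had passed a gate on CD127, the product of Il7r. The labels do not say where LCR1 lies or which cells its deletion reaches, and no gene could serve as a check of the genotype labels. With 1 library per genotype there was no replicate, no test was run between genotypes, and all intervals below are 95% intervals that cover counting error only.

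The members held 2941768 UMIs in WT and 5561194 in KO. Their median depth was 15182 and 14599.5 UMIs per cell, and their median mitochondrial share was 4.70% and 4.88%. Depth was more uneven in WT, where 28.7% of members and 33.2% of the Ly6d-0 cells had under 4000 UMIs, against 0.867% and 0.946% in KO. The median of the Ly6d-0 cells was 10823 UMIs in WT and 15542 in KO. Between the libraries 75 barcode sequences were shared, and no member occurred in both. No doublets were removed. Scrublet marked 7 of the WT barcodes within the limits (0.213%) and 56 of those in KO (1.29%).

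By construction Ly6d ran from 2 UMIs upward, to 149 in WT and 131 in KO, with a median of 4 and 10. At the limit, 48 WT and 43 KO members had 2 Ly6d UMIs, and 105 and 93 cells with 1 UMI stood just outside. For Dntt, 21 WT and 4 KO members had 3 UMIs and 25 and 2 cells with 2 UMIs were left out; for Flt3, 48 and 39 members had 1 UMI and 74 and 49 cells had none. For Siglech, 41 and 65 members had 1 UMI and 35 and 43 cells with 2 were left out, and for Cd79a 22 and 48 members had 1 UMI and 5 and 26 cells with 2 were left out. The WT members therefore sat closer to the Dntt limit than the KO members.

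Of the progenitors within the Flt3, Dntt, Siglech and Cd79a limits, 34.3% were Ly6d-positive in WT (185 of 540, exact Clopper-Pearson interval 30.3 to 38.4) and 40.1% in KO (346 of 862, 36.9 to 43.5). Across classes of raw Ly6d UMIs the libraries differed in both directions. Cells with 10 or more Ly6d UMIs made up 12.2% in WT (9.58 to 15.3) and 21.1% in KO (18.4 to 24.0), while cells with 2 to 4 made up 17.2% in WT and 10.1% in KO. Cells with none made up 46.3% and 49.1%. These classes were not set to equal depth. Cells with 2 to 4 Ly6d UMIs had a median depth of 7140 UMIs in WT and 14679 in KO. Those with 10 or more had 19045 and 14866.5. With every cell thinned to 4000 UMIs before the limits were applied, the Ly6d-positive share was 23.8% in WT (19.4 to 28.6) and 32.2% in KO (28.7 to 35.7). The order of the libraries turned when 1 Ly6d UMI was enough, with 53.7% in WT and 50.9% in KO, and at a limit of 5 UMIs the shares were 17.0% and 30.05%. As a background, Ly6d was found in 19.45% of WT and 7.82% of KO cells with at least 2 UMIs each of Il1rl1 and Gata3. Thinned to 4000 UMIs, these shares were 13.8% and 6.02%. The part of such background in the Ly6d-positive shares was not tested.

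**Figure D1:**
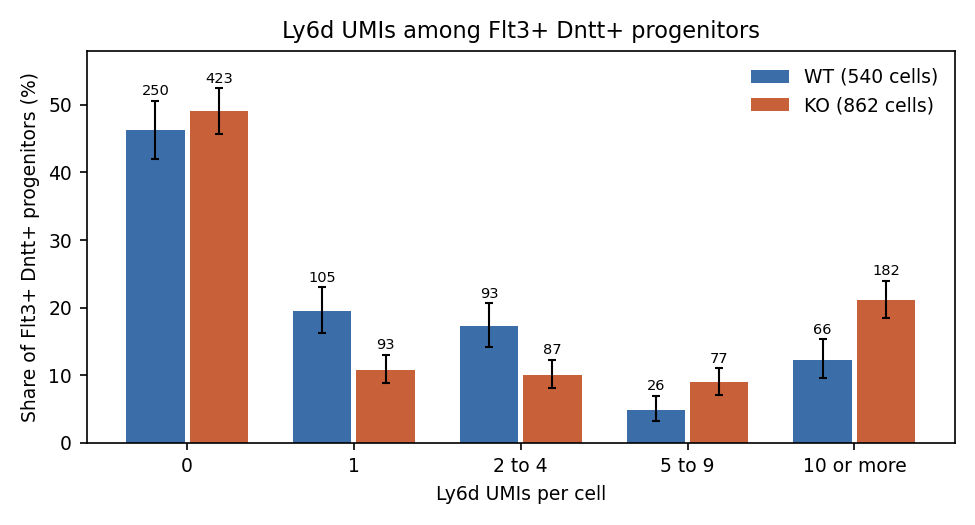
Share of Flt3-positive Dntt-positive progenitors (vertical axis, percent) by the number of Ly6d UMIs per cell (horizontal axis), with WT in blue (540 cells), KO in orange (862 cells), exact 95% intervals as bars and the number of cells above each. Cells with 1 and with 2 to 4 UMIs were a larger share in WT, and cells with 10 or more UMIs a larger share in KO (21.1% against 12.2%). The UMI counts are raw and were not set to equal depth.

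The label of a B-biased progenitor was set beside markers that the UMI limits did not use. These markers were picked with earlier results of these data known, so they describe the cells and are no independent check. Ebf1 UMIs were present in 70 of 185 WT members (37.8%) and in 214 of 346 KO members (61.8%). Rag1 UMIs were present in 38 (20.5%) and 125 (36.1%). In the WT and KO Ly6d-0 cells Ebf1 was present in 18.8% and 29.1%, and Rag1 in 11.2% and 18.9%. At equal depth Ebf1 was found in 28.8% of WT members against 12.0% of Ly6d-0 cells, and in 38.2% against 16.0% in KO. Rag1 was then found in 7.58% against 6.59% in WT and 12.8% against 8.59% in KO, with overlapping intervals. At equal depth Rag1 thus did not clearly separate the members from the Ly6d-0 cells. Markers of later B cells were mixed. Ms4a1 and Cd22 had 0 UMIs in both libraries, which allows a level of up to 1.02 CPM in WT and 0.540 CPM in KO (CPM is UMIs per 1000000 UMIs of the class, and the limit is 3 counts). The other 13 of the 15 later B cell genes were above 0, and the list summed to 484 CPM in WT and 539 CPM in KO members, against 379 and 442 in the Ly6d-0 cells, with Cd37 the largest part. Markers of other cells the sort could hold were present at different levels. The summed level of 12 group 2 innate lymphoid markers was 182 CPM in WT and 142 CPM in KO members, with Ccr8 at 0 in WT and Klrg1 at 0 in KO, and that of 10 monocyte and dendritic cell markers was 69.0 and 65.3 CPM, with Cd209a and Fcgr1 at 0 in both. The sum of 10 natural killer cell markers was 181 and 208 CPM, most of it Nkg7 (121 and 130 CPM). The plasmacytoid dendritic cell list summed to 1121 and 1085 CPM, carried by Tcf4 and Cox6a2, while Klk1 and Pltp were at 0. In the WT and KO Ly6d-0 cells this list summed to 878 and 967 CPM, so it too was higher in the members. The group 2 innate lymphoid markers summed to 165.5 and 114.6 CPM in the Ly6d-0 cells. The natural killer markers summed to 185.7 and 212.2 there, and the monocyte and dendritic cell markers to 83.6 and 68.0. The list of 13 myeloid progenitor genes summed to 969 and 630 CPM in members, against 675 and 573 in Ly6d-0 cells, with Irf8 the largest part. Mpo, one of them, was found in 48.1% and 49.7% of members unthinned and 32.6% and 23.3% at equal depth, above the 9.70% and 3.31% of cells with Il1rl1 and Gata3. The part of these markers in the results below was not tested.

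The onset of the B programme was described by adding up the UMIs of the Ly6d-positive and of the Ly6d-0 cells in each library and comparing CPM values. A gene was counted as measured with at least 50 UMIs over both sums and 50 CPM in the higher class, and as called at a difference of at least 2-fold. Few genes met it: in WT 7 of 3266 measured genes (0.214%) were higher and 9 (0.276%) lower in the Ly6d-positive cells, and in KO 6 of 3170 (0.189%) were higher and 4 (0.126%) lower. The WT lower genes included 4 haemoglobin genes, and the WT higher genes included Prss34 and Ctsg. Without 3 cells rich in haemoglobin, Hbb-bs fell from 1253 to 5.15 CPM in the WT Ly6d-0 cells. Without 2 cells rich in Prss34 and Mcpt8, Prss34 fell from 630 to 64.2 CPM and Ctsg from 104 to 23.7 in the WT members. In both libraries 2 of 3051 (0.0656%) were higher, Ebf1 and Myl4, and 1 (0.0328%) was lower, Wfdc17. Because Ly6d itself chose the cells, these differences are a description and carry no test.

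Ebf1 was at 29.0 CPM in WT Ly6d-0 cells and at 107 CPM in WT Ly6d-positive cells, which is 3.70-fold (2.95 to 4.68). In KO it was at 51.8 and 176 CPM, which is 3.39-fold (3.00 to 3.83). Both Ly6d-positive values were above both Ly6d-0 values. Its level was higher with more Ly6d UMIs, except between the upper classes of KO and between 0 and 1 UMI in WT. In WT it was 28.7 CPM with 1 Ly6d UMI, 59.6 CPM with 2 to 4, 106 CPM with 5 to 9 (from 37 UMIs) and 152 CPM with 10 or more (132 to 174). In KO the same classes had 76.3, 103, 231 (204 to 260) and 190 CPM (174 to 206), so the highest value there was in the class of 5 to 9 UMIs. The log2 ratio of Ebf1 in CPM + 5 was 1.73 in WT, 1.30 with cells thinned to equal depth and 2.56 with a mitochondrial limit of 5%, and in KO it was 1.67 and ran from 1.25 to 1.86 over the settings tried.

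**Figure D2:**
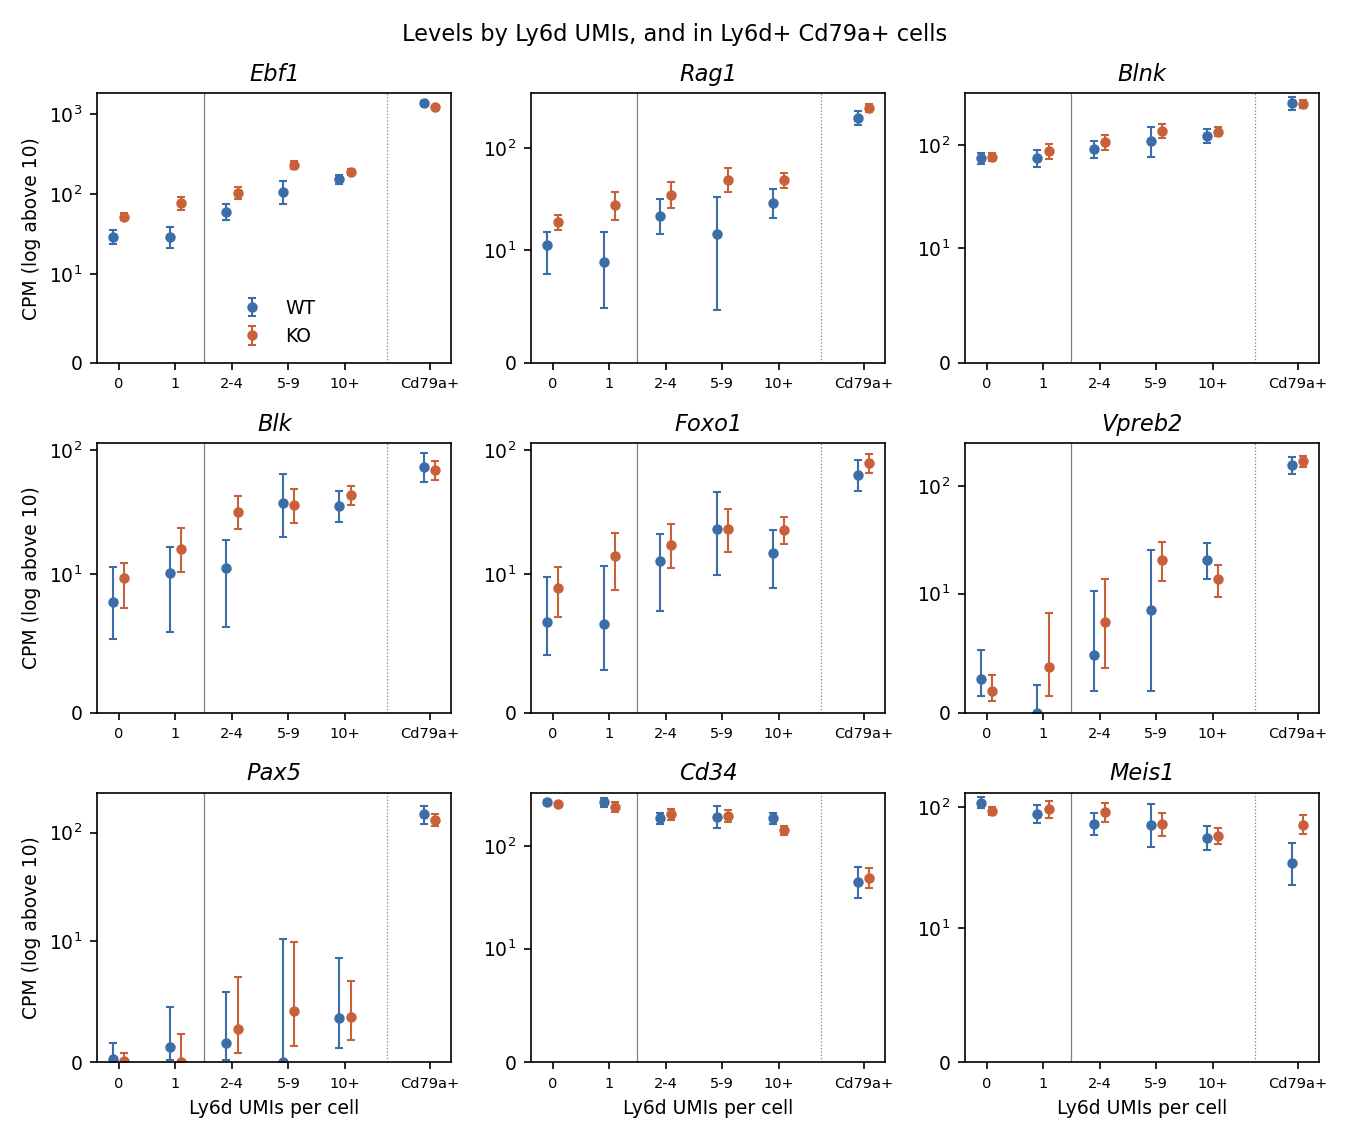
Level of 9 genes (vertical axes, CPM, linear to 10 and logarithmic above) by Ly6d UMIs per cell, with Ly6d-positive Cd79a-positive cells at the right of the dotted line; blue is WT, orange is KO, bars are exact Poisson 95% intervals of the UMI sums, and members lie between the solid and dotted lines. Ebf1, Blk and Vpreb2 were higher in the members than in cells without Ly6d, Pax5 was at most 4.25 CPM in any class of members, and Cd34 and Meis1 were lower.

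Promoter sequence was looked up to show what lies before the starts of Ebf1 and of other genes of the B programme, whether or not they differed with Ly6d and including Flt3, Dntt and Cd79a, which chose the cells. For 20 genes of this account, chosen after their values were seen, the RefSeq promoter table of build GRCm38.p6 held 15 windows of 14 genes. The 250 bases before each start were searched on both strands for TCCC, any 2 bases, then GGGA, the palindromic pattern bound by EBF proteins, and for the E box CANNTG, also palindromic and bound by E proteins such as E2A. The EBF pattern was in 1 of the 15 windows, that of Foxo1, and in 256 of 32851 windows of the whole table (0.779%). Only exact matches were counted, so sites that depart from this pattern would be missed. A window without a match is not shown to lack an EBF site. An E box was in 13 of the 15 and in 66.217% of all windows, so its presence was the common state. The following windows are printed 5′ to 3′ on the strand of the gene. That of Ebf1 is at chr11:44619978-44620227, plus strand, with its 1 E box in capitals. It lies before the downstream of the RefSeq starts of Ebf1 and inside the extent of the gene in GENCODE. The window before the upstream start of Ebf1 held neither pattern and is not printed. That of Rag1 is at chr2:101649533-101649782, minus strand, upstream of the gene, with 3 E boxes in capitals. That of Foxo1 is at chr3:52268087-52268336, plus strand, with the EBF pattern in capitals, 92 bases before the start.
Ebf1: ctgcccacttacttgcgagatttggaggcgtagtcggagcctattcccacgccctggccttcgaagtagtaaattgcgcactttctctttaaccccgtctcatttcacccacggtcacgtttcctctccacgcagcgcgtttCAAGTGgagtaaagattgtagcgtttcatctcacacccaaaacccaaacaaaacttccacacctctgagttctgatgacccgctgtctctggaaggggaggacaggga
Rag1: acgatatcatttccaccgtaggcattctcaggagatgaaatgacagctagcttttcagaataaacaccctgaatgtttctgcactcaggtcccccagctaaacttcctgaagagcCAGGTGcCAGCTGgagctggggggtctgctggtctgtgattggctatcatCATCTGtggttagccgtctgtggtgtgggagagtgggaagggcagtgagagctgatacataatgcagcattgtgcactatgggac
Foxo1: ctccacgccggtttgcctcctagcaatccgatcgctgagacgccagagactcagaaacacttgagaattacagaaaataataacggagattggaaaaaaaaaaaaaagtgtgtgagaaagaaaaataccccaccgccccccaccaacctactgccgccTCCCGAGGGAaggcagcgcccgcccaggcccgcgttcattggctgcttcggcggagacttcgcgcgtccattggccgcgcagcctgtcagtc
The matches are letters in a window and say nothing of binding in these cells.

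Among the other factors of B lineage entry the differences were small. Of 20 listed factors 10 were measured in each library, 1 (Ebf1) was called higher and 0 lower in each, and the median log2 ratio was 0.055 in WT and 0.069 in KO, beside 0.009 and 0.013 over all measured genes. Tcf3, which encodes E2A, was at 94.5 CPM in WT members and 102 in Ly6d-0 cells, and at 104 and 95.9 in KO. Ikzf1, a zinc finger factor of lymphoid priming, was at 329 and 293 CPM in WT and at 316 and 294 in KO. Bcl11a, also required for early lymphoid cells, was at 309 and 291 CPM in WT and 285 and 278 in KO. These factors were thus already present in cells without Ly6d. Foxo1 lay under the 50 CPM minimum but was higher in the members of both libraries, at 15.0 against 6.54 CPM in WT (2.29-fold, 1.35 to 3.97) and 21.2 against 9.01 CPM in KO (2.35-fold, 1.72 to 3.24). At equal depth it was found in 5.30% of WT members against 4.19% of Ly6d-0 cells. In KO these shares were 10.2% and 5.01%, and the intervals overlapped in both libraries. With thinned cells its log2 ratio went from 0.79 to 0.38 in WT and from 0.90 to 0.79 in KO. Bach2 was at 37.7 against 22.8 CPM in WT and 31.5 against 24.7 in KO. Pax5, which fixes B identity, had 7 UMIs in all WT members (2.38 CPM) and 20 in KO members (3.60 CPM), against 1 UMI in the Ly6d-0 cells of each library.

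The genes of the pre-B cell receptor differed among themselves. Of 12 listed, 5 were measured and 0 were called in either direction in both libraries, and the median log2 ratio was 0.30 in WT and 0.12 in KO. Blk, a Src-family kinase of B cells, was at 25.5 against 7.96 CPM in WT (3.20-fold, 2.05 to 5.13) and 38.5 against 9.72 in KO (3.96-fold, 3.01 to 5.27), below the CPM minimum. Vpreb2, which encodes part of the surrogate light chain, was at 12.6 against 2.84 CPM in WT (4.42-fold, 2.16 to 9.97) and 13.5 against 1.83 in KO (7.37-fold, 4.06 to 14.5). Its near copy Vpreb1 was at 3.06 against 3.13 CPM in WT and 8.27 against 3.38 in KO, and UMIs of the pair can be split between them, so both levels are uncertain. Blnk, the adaptor of pre-B cell receptor signalling, was at 108 against 74.8 CPM in WT (1.45-fold, 1.22 to 1.71) and 128 against 76.8 in KO (1.67-fold, 1.49 to 1.87). Igll1, the other surrogate light chain gene, had 6 UMIs in WT and 5 in KO members. Cd79b was at 30.6 against 39.3 CPM in WT and 43.9 against 34.1 in KO, with opposite signs in the libraries, and at equal depth it was found in 9.09% of WT members, near the 9.33% of cells with Il1rl1 and Gata3, and in 15.2% of KO members (11.5 to 19.4), above the 8.43% of those cells there. Ighm transcripts were at 653 against 500.0 CPM in WT and 684 against 527 in KO, and 3′ UMIs do not tell a rearranged from a germline transcript.

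Of the recombination genes, 12 were listed, 4 were measured and 0 were called in either library. Rag1, which encodes the catalytic subunit of the recombinase, was at 24.1 against 11.1 CPM in WT (2.18-fold, 1.45 to 3.30) and at 45.1 against 18.7 CPM in KO (2.41-fold, 1.95 to 3.00), under the CPM minimum. The difference was smaller at equal depth: with every cell thinned to 4000 UMIs the log2 ratio was -0.031 in WT and 0.21 in KO, and the share of cells with a Rag1 UMI was 7.58% of members against 6.59% of Ly6d-0 cells in WT and 12.8% against 8.59% in KO. In cells with at least 2 UMIs each of Il1rl1 and Gata3, which should lack it, Rag1 was found in 0.373% and 2.71%. Its partner Rag2 was at 36.0 against 33.3 CPM in WT and 36.1 against 29.3 in KO. Xrcc6, the Ku70 subunit of end joining, was at 349 against 255 CPM in WT and 430 against 291 in KO. Arpp21, a gene well known from early T and B precursors, was at 309 against 234 CPM in WT and 339 against 248 in KO.

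At a lower threshold of 1.5-fold in both libraries, set after the values were seen, 12 of 3051 genes (0.393%) were higher and 9 (0.295%) lower in the Ly6d-positive cells. Beside Ebf1, the higher genes included Myl4, Ly6e, Nrgn, Cpne2, Tifa, Sdc4, Ly6a, Tmem108, Crip1 and Tfrc. Myl4, a myosin light chain, was at 72.4 against 25.3 CPM in WT (2.86-fold, 2.22 to 3.71) and 75.3 against 27.3 in KO (2.76-fold, 2.32 to 3.29). Tfrc, the transferrin receptor, was at 147 against 87.9 CPM in WT and 156 against 103 in KO. The lower genes were Wfdc17, Gcnt2, Adgrl4, Cdk1, Ccl5 and 4 histone genes. Wfdc17, a small secreted protein, was at 19.0 against 66.6 CPM in WT and 13.5 against 52.8 in KO, and it missed the minimum level with thinned cells in both libraries and with a Dntt limit of 1 in KO, although its log2 ratio was still -1.38 in WT and -1.48 in KO with thinned cells.

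**Figure D3:**
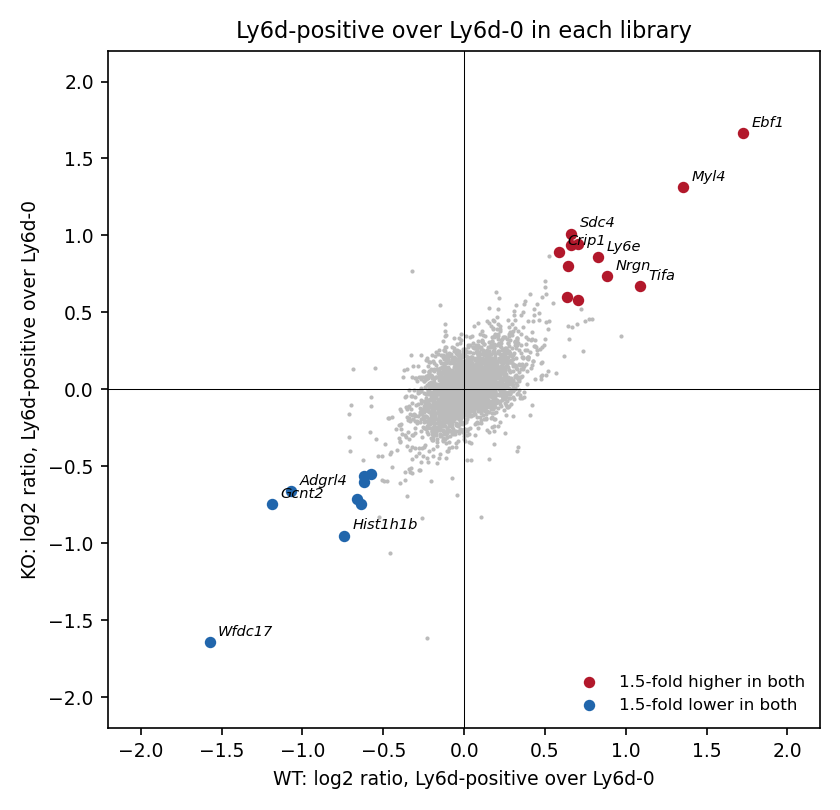
Each point is a gene measured in both libraries, placed by its log2 ratio of CPM + 5 between Ly6d-positive and Ly6d-0 cells in WT (horizontal) and KO (vertical); red and blue mark the genes at least 1.5-fold higher or lower in both. Ebf1 and Myl4 lie farthest to the upper right and Wfdc17 farthest to the lower left, while most genes lie near 0 in both.

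Most measured genes of stem and multipotent cells lay below 0 without being called. Of 14 listed, 8 were measured in each library and 1 of the 8 lay above 0 in each, which was Ly6a; the median log2 ratio was -0.54 in WT and -0.33 in KO, beside 0.009 and 0.013 over all measured genes, of which 1704 of 3266 and 1708 of 3170 lay above 0. In WT 1 was called lower (Adgrl4) and in KO 1 higher (Ly6a). Cd34 was at 188 against 267 CPM in WT and 171 against 260 in KO. Meis1, a homeobox factor of stem cells, was at 65.3 against 110 CPM in WT and 69.4 against 93.2 in KO. Kit, the receptor for stem cell factor, was at 31.3 against 54.3 CPM in WT and 42.3 against 53.5 in KO. Mecom, a factor of long-term stem cells, was at 4.42 against 27.0 CPM in WT and 7.37 against 16.2 in KO, and Hlf at 17.0 against 34.4 and 14.8 against 23.7, both under the CPM minimum. Adgrl4 was at 40.5 against 90.4 CPM in WT and 46.2 against 76.1 in KO.

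Cell cycle genes also lay mostly below 0, with none called. Of 25 listed, 23 were measured in WT and 21 in KO, 0 were called in either direction, and 6 of 23 and 0 of 21 lay above 0, with medians of -0.21 and -0.32. Cdk1, the mitotic kinase, was at 56.4 against 90.7 CPM in WT and 34.9 against 62.0 in KO. Top2a was at 527 against 680.0 CPM in WT and 317 against 463 in KO, and Mki67 at 405 against 518 and 249 against 323. The linker histone gene Hist1h1b was at 220 against 371 CPM in WT and 139 against 272 in KO. Histone genes are near copies of one another, so UMIs can be split between them.

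Lymphoid progenitor genes were mostly a little higher in the members. Of 16 listed, 12 were measured, 0 were called, and 10 of 12 in WT and 9 of 12 in KO lay above 0, with medians of 0.22 and 0.16. Il7r, whose product defined the gate, was at 449 against 365 CPM in WT and 416 against 325 in KO. Irf8, a factor of dendritic and B cell fates, was at 492 against 292 CPM in WT and 353 against 258 in KO. Notch1, the receptor that directs progenitors to the T lineage, was at 198 against 193 CPM in WT and 246 against 225 in KO. Its target Hes1 was higher in the members of both libraries, at 30.3 against 11.1 CPM in WT (2.73-fold, 1.85 to 4.08; log2 ratio 1.13, but 0.47 with a Dntt limit of 1 and 1.80 with thinned cells), under the minimum, and at 227 against 82.0 CPM in KO (2.77-fold, 2.51 to 3.06). Id2, the E protein inhibitor needed by innate lymphoid cells, was at 68.3 against 56.6 CPM in WT and 36.9 against 27.0 in KO, and its log2 ratio was below 0 in both with a Dntt limit of 1 (-0.58 and -0.058) and in WT with thinned cells (-0.26).

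Ly6d lies in a cluster of related genes on chromosome 15, at chr15:74762056-74763620 on the minus strand in mm10, and several of its neighbours within 500 kb were higher in the same cells. Ly6e, 193 kb from the start of Ly6d, was at 1069 against 600.3 CPM in WT and 1098 against 603 in KO (1.78-fold and 1.82-fold). Ly6a, 233 kb away and known as the stem cell antigen Sca-1, was at 78.9 against 48.1 CPM and 61.9 against 29.9. Them6, 40.9 kb away, was at 39.8 against 23.0 CPM in WT (1.73-fold, 1.29 to 2.32) and 40.6 against 26.8 in KO (1.52-fold, 1.25 to 1.85). Lynx1, 14.2 kb away, was low, at 10.5 against 2.84 CPM in WT (31 against 10 UMIs) and 7.19 against 1.27 in KO (40 against 9 UMIs), and Ly6k, 34.8 kb away, had 15 against 2 UMIs and 22 against 12. Psca, Lypd2 and Slurp2 had no UMI in either class, and Ly6c2, 346 kb away, was at 7.14 against 4.84 CPM in WT and 3.06 against 6.06 in KO. Ly6 genes resemble one another, so some of these UMIs may belong to another member of the family, and the cells were chosen by Ly6d itself.

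The members were not uniform. In WT, 115 of 185 had no Ebf1 UMI, 48 had 1 to 4, 14 had 5 to 9 and 8 had 10 or more, up to 30. In KO, 132 of 346 had none, 132 had 1 to 4, 59 had 5 to 9 and 23 had 10 or more, up to 23. The cells with 10 or more held 40.2% of the Ebf1 UMIs of the WT members and 33.7% of those of the KO members, so a few cells carried much of the class level. With every cell thinned to 4000 UMIs, which left out 53 WT and 3 KO members, Ebf1 was found in 28.8% of members in WT (21.2 to 37.3) and 38.2% in KO (33.0 to 43.6), against 12.0% and 16.0% of the Ly6d-0 cells. The unthinned shares of the Ly6d-0 cells were 18.8% and 29.1%. As a background, Ebf1 was found in 1.87% of thinned cells with at least 2 UMIs each of Il1rl1 and Gata3 in WT and 1.21% in KO, a class picked after the data were seen, with median depths of 5858 and 4998 UMIs.

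Members with and without an Ebf1 UMI were set beside each other in the thinned counts. Rag1 was found in 7 of 38 WT members with Ebf1 (18.4%, 7.74 to 34.3) and in 3 of 94 without (3.19%, 0.663 to 9.05), and in KO in 33 of 131 (25.2%, 18.0 to 33.5) and 11 of 212 (5.19%, 2.62 to 9.09). Rag2 and Cd79b differed in sign between the libraries: Rag2 was found in 7.89% with and 17.0% without Ebf1 in WT and in 15.3% and 8.49% in KO, and Cd79b in 7.89% and 9.57% in WT and 19.1% and 12.7% in KO. Irf8 was found in 55.3% with and 69.1% without Ebf1 in WT and 38.9% and 51.4% in KO. Il7r was found in 89.5% and 76.6% in WT and 82.4% and 65.1% in KO. Mki67, a cycling marker, was found in 23.7% and 41.5% in WT and 19.1% and 30.7% in KO, but its WT level went against the shares, at 362 CPM with and 322 CPM without Ebf1, so no order is read from them there. Vpreb1, Igll1 and Pax5 were found in at most 6 cells of any of these classes. Dntt, which chose the cells, was found in 100.0% of members with Ebf1 in both libraries and in 97.9% and 99.1% of those without.

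**Figure D4:**
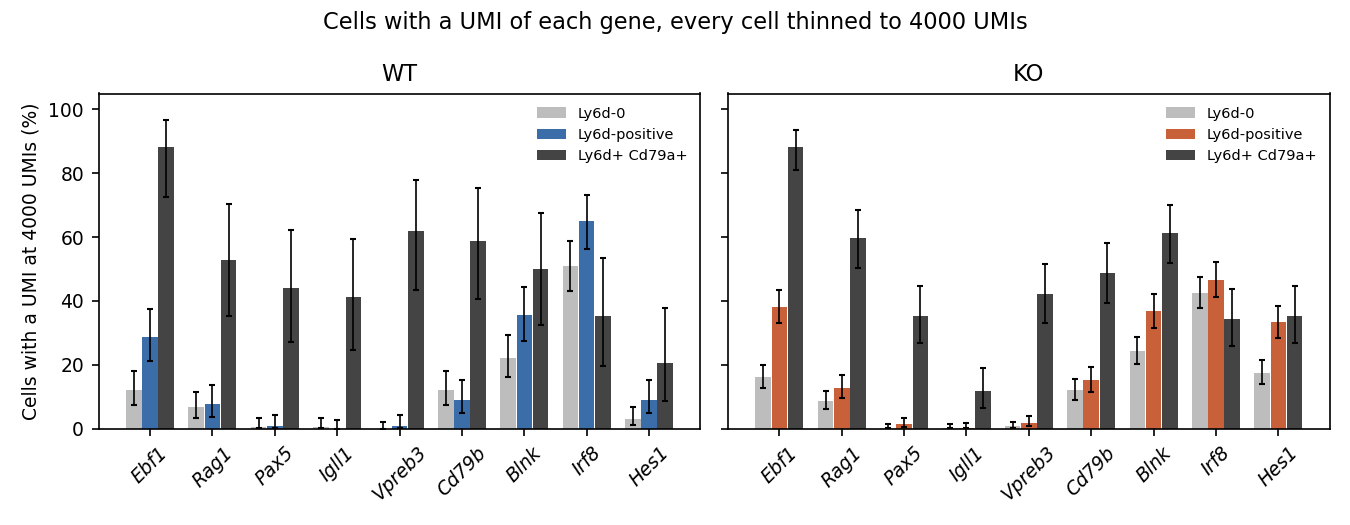
Share of cells with at least 1 UMI (vertical axis, percent) of 9 genes after thinning every cell to 4000 UMIs, in WT (left) and KO (right), for Ly6d-0 cells (light grey), Ly6d-positive cells (coloured) and Ly6d-positive Cd79a-positive cells (dark grey); bars are exact Clopper-Pearson 95% intervals. Ebf1 was found in 12.0%, 28.8% and 88.2% in WT and 16.0%, 38.2% and 88.2% in KO. Pax5, Igll1 and Vpreb3 were near 0 in the Ly6d-0 and Ly6d-positive cells. Those classes allow at most 1 Cd79a UMI, whereas the last needs at least 2 and has no Flt3 or Dntt limit. The contrast with the last class is therefore partly set by the limits themselves.

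A further class was made of cells with at least 2 UMIs each of Ly6d and Cd79a and at most 1 of Siglech, with no limit on Flt3 or Dntt. It held 41 cells in WT and 122 in KO. Ebf1 was at 1365 CPM there in WT and 1207 in KO, which is 12.7-fold (11.2 to 14.4) and 6.88-fold (6.37 to 7.43) the level of the members. Rag1 was at 199 and 250 CPM (8.26-fold and 5.54-fold), and Rag2 at 59.2 and 54.8. Pax5 was at 147 and 131 CPM against 2.38 and 3.60 in the members. Of the surrogate light chain genes, Igll1 was at 364 and 103 CPM and Vpreb1 at 322 and 119, and Vpreb3, a pre-B cell chaperone, was at 582 and 394. Foxo1 was at 63.0 and 78.2 CPM and Pou2af1, an octamer coactivator of B cells, at 56.6 and 63.3, against 1 and 3 UMIs in the members. Irf8 was lower, at 158 and 152 CPM, and so were Cd34, at 45.0 and 49.1, and Mpo, a granule gene of myeloid progenitors, at 23.2 and 24.5. In this class 4 WT and 5 KO cells had at least 20 UMIs of Igkc and Igha, the immunoglobulin chains of mature cells, and without them Ighm in KO went from 6665 to 903 CPM whereas Ebf1 was at 1329 and 1275 CPM. Cd79a, which chose this class, belongs to the same programme, so its levels are a description.

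Between the genotypes, 11 of 3235 measured genes (0.34%) were at least 2-fold higher and 8 (0.247%) at least 2-fold lower in KO members than in WT members. In the Ly6d-0 cells these counts were 15 of 3210 (0.467%) and 11 (0.343%). The higher genes were Hes1, Nr4a1, Fos, Zfp36, Dusp2, Kdm6b, Dusp1, Nfkbiz, Bcl2l11, Rgs2 and Junb, and all but Dusp1, Bcl2l11 and Rgs2 were called in the Ly6d-0 cells too. Hes1 was at 227 CPM in KO and 30.3 in WT members (7.51-fold, 6.05 to 9.42), and at 82.0 and 11.1 CPM in the Ly6d-0 cells. Nr4a1, an orphan nuclear receptor induced by signalling, was at 59.5 and 7.48 CPM in members and 53.7 and 11.1 in Ly6d-0 cells. Fos was at 1111 and 459 CPM (2.42-fold, 2.28 to 2.57), and at 1250.0 and 463 in Ly6d-0 cells. Of 20 immediate early genes, a group that responds within minutes to signals and to handling of cells, 16 were measured and all 16 lay above 0 in both classes, with medians of 0.83 in members and 0.85 in Ly6d-0 cells, beside -0.027 and -0.031 over all measured genes. Fos, Junb, Dusp1, Nr4a1 and Zfp36 were called in the members. Zfp36, which encodes a protein that destabilises cytokine mRNAs, was at 252 CPM in KO and 103 in WT members, and Dusp1, a phosphatase that turns off MAP kinases, at 152 and 68.3. Dusp2, a related phosphatase, was at 385 and 162 CPM, and Kdm6b, a histone demethylase, at 106 and 45.9. Bcl2l11, which encodes the death inducer Bim, was at 77.1 and 34.7 CPM, and Junb, a partner of Fos, at 342 and 170.0. Nfkbiz, Rgs2 and Junb were not called with at least 5 Ly6d UMIs. Library and genotype cannot be told apart here.

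The genes lower in KO were Prss34, Mcpt8, Ctsg, Cpa3, Hist1h2ab, Hist1h3c and Plk4, beside an immunoglobulin gene. Prss34, Mcpt8, Ctsg and Cpa3 are protease genes of basophils, mast cells and neutrophils, and 72.1% to 87.2% of their UMIs in the WT members came from 1 cell. In WT, 2 members had at least 20 UMIs of Prss34 and Mcpt8. Without them Prss34 was at 64.2 CPM in WT against 23.7 in KO, Mcpt8 at 52.7 against 29.3, Ctsg at 23.7 against 8.99 and Cpa3 at 20.6 against 21.0. In the Ly6d-0 cells Prss34 was at 248 CPM in WT and 21.0 in KO, and the WT Ly6d-0 cells also had 1253 CPM of the haemoglobin gene Hbb-bs, with 3 cells holding at least 20 UMIs of haemoglobin genes and 5.15 CPM without them. Plk4 took 32.7% of its WT UMIs from 1 cell and was 1.37-fold lower in KO without it. Both TMM and median-of-ratios scaling ended the calls of Plk4 and Hist1h2ab, and with thinned cells Ctsg, Cpa3, Hist1h2ab and Plk4 were not called. Of the cell cycle genes, 22 were measured, 0 were called and 0 lay above 0 in KO over WT members, with a median of -0.34, beside -0.027 over all 3235 measured genes, of which 1411 lay above 0. Mki67 was at 249 CPM in KO and 405 in WT, and in the Ly6d-0 cells at 323 and 518.

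**Figure D5:**
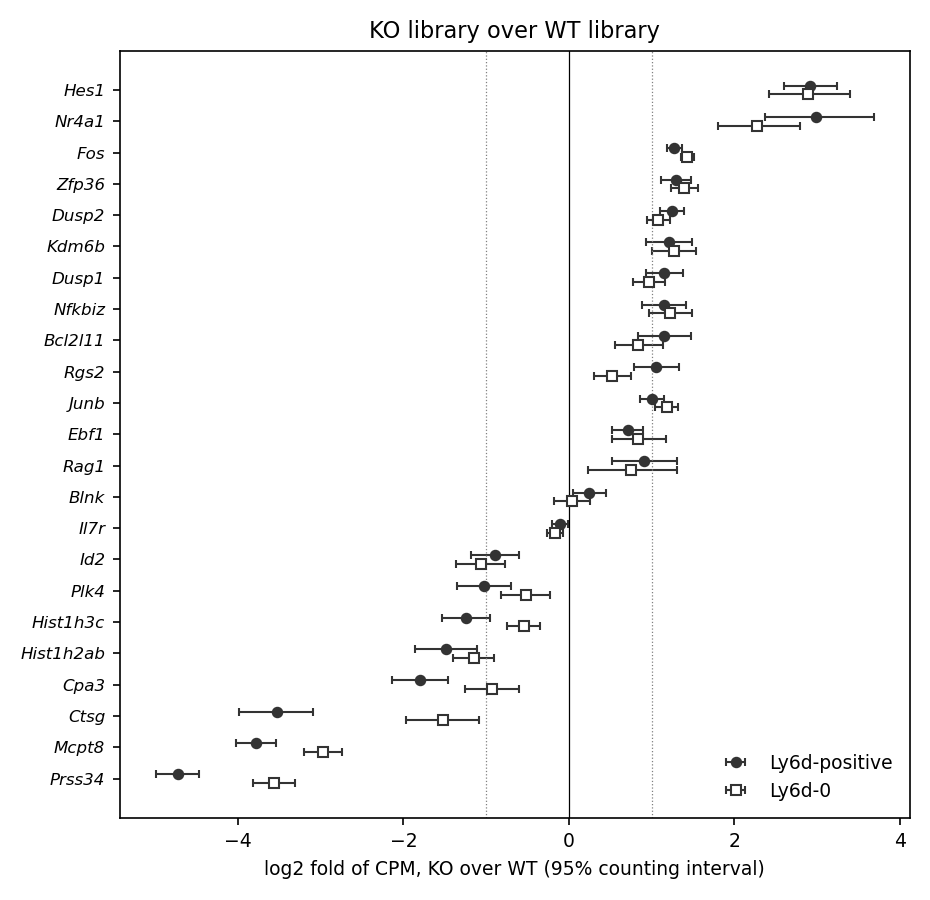
Log2 fold of CPM, KO over WT (horizontal axis), in Ly6d-positive cells (filled circles) and Ly6d-0 cells (open squares) for the genes called between the genotypes and for Ebf1, Rag1, Blnk, Il7r and Id2; bars are exact binomial 95% intervals of the UMI counts and dotted lines mark 2-fold. Hes1 and Nr4a1 lie farthest to the right in both classes, Ebf1 and Rag1 lie right of 0 and Id2 left of 0.

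Of the measured B lineage and pre-B cell receptor genes, 0 were called between the genotypes. Ebf1 was at 176 CPM in KO members and 107 in WT members (1.63-fold, 1.44 to 1.86), and at 51.8 and 29.0 CPM in the Ly6d-0 cells (1.79-fold). Over the settings tried its log2 ratio in members ran from 0.33, with a mitochondrial limit of 5%, to 0.77. KO members also held more Ly6d UMIs per cell, with a median of 10 against 4. Among members with 2 to 4 Ly6d UMIs Ebf1 was at 103 CPM in KO and 59.6 in WT. With 5 to 9 it was at 231 and 106.5 CPM, and with 10 or more at 190 and 152. The part of the Ly6d level in the Ebf1 difference was not tested. Over all KO and WT members Rag1 was at 45.1 and 24.1 CPM (1.87-fold, 1.43 to 2.47), Blk at 38.5 and 25.5 (1.51-fold, 1.16 to 1.99) and Blnk at 128 and 108 (1.19-fold, 1.04 to 1.36). Over the settings tried the log2 ratio of Blk ran from 0.167, with at least 5 Ly6d UMIs, to 0.575. That of Rag1 ran from 0.728 to 0.936 and that of Blnk from 0.174 to 0.34. Among the genes under the minimum, Vpreb1 was at 8.27 CPM in KO (46 UMIs) and 3.06 in WT (9 UMIs), which is 2.70-fold (1.31 to 6.28), and Igll1 at 0.899 CPM (5 UMIs) and 2.04 (6 UMIs). Vpreb2 was at 13.5 and 12.6 CPM, Pax5 at 3.60 and 2.38 and Il7r at 416 and 449. The list of 20 B lineage factors had 10 measured members, 0 called in either direction, and a median of -0.020, and the pre-B cell receptor list had 5 measured, 0 called and a median of 0.066. In the Ly6d-positive Cd79a-positive cells, Ebf1 was at 1207 CPM in KO and 1365 in WT, and Pax5 at 131 and 147. Without the cells with at least 20 UMIs of Igkc and Igha, Ebf1 was at 1275 CPM in KO and 1329 in WT. With thinned cells Ebf1 was found in 88.2% of this class in both libraries, so no order of the libraries is read there.

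Id2 was lower in KO in both classes. It was at 36.9 CPM in KO members and 68.3 in WT members (1.85-fold lower, 1.52 to 2.26), and at 27.0 and 56.6 CPM in Ly6d-0 cells (2.09-fold lower, and 1.85-fold without the cell with most Id2 UMIs). In members the log2 ratio was -0.81, and -1.04 with thinned cells. The difference between the classes was not tested. In cells with at least 2 UMIs each of Il1rl1 and Gata3, Id2 was at 878 CPM in WT and 231 in KO. The part of background from such cells in the Id2 levels of the progenitors was not tested. Ccr9, a chemokine receptor of lymphoid progenitors that seed the thymus, was at 40.5 and 19.4 CPM in members but 21.8 and 19.9 in Ly6d-0 cells, all under the minimum. The innate lymphoid list of 15 genes, which contains Id2, had 3 measured in the members, 0 called and 0 above 0, with a median of -0.36. Irf8 was at 353 CPM in KO and 492 in WT members (0.718 of the WT level, 0.670 to 0.769) and at 258 and 292 CPM in Ly6d-0 cells.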

How the data were processed

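Counts were deposited by the authors as raw UMI counts per gene and barcode for 1 library per genotype, made with the 10x Genomics 3′ chemistry. Per the file headers they were written by Cell Ranger 3.1.0, and per the submitters' processing notes the genome build was mm10 and Seurat was also used, in a role not given in the sources used here. No source used here says whether reads were downsampled between the libraries.

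Members and gene lists were chosen with earlier results of these data known. UMIs were summed per class and library and scaled to CPM, per 1000000 UMIs of the class, with Python 3.11.15, and ratios were taken on log2(CPM + 5). Intervals at 95% were exact Poisson for a level, exact binomial for a fold and Clopper-Pearson for a share. Genes whose symbol occurs more than once (71) were left out. Shares of cells were also given with every cell thinned to 4000 UMIs (seed 1). The genes named were up to 12 per direction called at 2-fold, in both libraries for the Ly6d contrast, leaving out the 5 genes of the rule, sex-linked genes, antigen receptor segments and the genes of haemoglobin, ribosomes and mitochondria, with the lineage factors, the markers, Id2 and up to 6 genes per list. The genes of the 1.5-fold list, the Ly6 neighbours, the promoter genes and Ccr9 were chosen after their values were seen. Sums with Poisson counting error only were simulated for the Ly6d contrast in each library and for KO over WT in the members. In each, the rule called 100 of 100 genes changed 3-fold and 0 of 100 changed 1.5-fold. This follows largely from the fixed 2-fold limit. Spread between cells, such as single cells rich in a gene, was not simulated. KO over WT in the Ly6d-0 cells was not simulated either. Alternatives covered scaling (TMM from edgeR 4.0.16 and median of ratios), minimum counts, pseudocount, depth, limits of the rule and doublet scores from Scrublet in scanpy 1.11.5. Some genes are not reported here.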

Additional observations from a re-analysis of the deposited data

Results flagged for a closer look

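In WT, 45 barcodes with 500 to under 1000 genes met all UMI limits of the members and were left out by the gene limit, against 0 in KO, where 146 barcodes in all had that number of genes and 7229 had it in WT. These 45 barcodes are data outside the comparisons above. Their median depth was 1437 UMIs. Ly6d was at 2522 CPM, Dntt at 2992 and Il7r at 595 in their summed counts, Ebf1 was at 78.3 CPM from 5 UMIs, and Rag1 had none. Ly6d and Dntt chose these barcodes. At so low a depth the UMI limits alone set high CPM values of both, so these are not to be compared with the members.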

How the results depend on the processing

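Thinning to 4000 UMIs gave Ly6d-positive shares of 23.8% in WT and 32.2% in KO, a limit of 1 Ly6d UMI 53.7% and 50.9% (KO minus WT -2.78 points, reversed), a limit of 5 UMIs 17.0% and 30.05%, and a limit of 500 genes 29.3% in WT. Counts of genes at least 2-fold higher and lower moved most with a minimum of 10 UMIs only, to 310 and 301 (WT, Ly6d contrast), 336 and 237 (KO, Ly6d contrast), 420 and 273 (genotype, members) and 355 and 334 (genotype, Ly6d-0), since many low genes then enter. With thinned cells they were 11 and 26 in WT, 27 and 24 between genotypes in members, and 30 and 20 in Ly6d-0 cells. With at least 5 Ly6d UMIs, 13 genes were higher in WT, 8 lower in KO and 19 lower between genotypes. With a Dntt limit of 1, 4 were higher in WT and 7 lower in KO, and with a mitochondrial limit of 5%, 14 were lower in WT. The cause of these changes was not tested. List medians that reversed were those of the myeloid list with a minimum of 10 UMIs (-0.106 in WT, -0.264 in KO), the innate lymphoid list in WT (-0.274 with a Dntt limit of 1, -0.064 with the lower minimum) and the interferon list in WT (-0.056). The log2 ratio of Cpa3 between genotypes reversed to 0.356 with at least 5 Ly6d UMIs and 0.045 without its top cell. Ebf1 stayed above 0 in the Ly6d contrast and between genotypes in members under all 12 settings run for it. Leaving out shallow cells or a gene's top cell, and the counts without cells of other lineages, were chosen after seeing the data. No paired analysis was possible because each genotype had 1 library. Counting intervals do not cover differences between animals or libraries, and genes under 50 CPM rest on few UMIs.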
